A study of Homo sapiens with 18 samples.

Results

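The transcriptome of the glioblastoma line T98G was compared with that of the line labelled LN229 at baseline, in the 6 libraries that carried the control guide sgCon. These are 3 libraries per line, out of 18 in the series, and every gene that passed a count filter entered the comparison, 21149 genes of the 46218 in the table. Another line, U118-MG, and 3 libraries per line treated with the sgDDA1 guide complete the series. That guide targets a small accessory subunit of the CUL4-DDB1 ubiquitin ligase. Per the labels, LN229 sgCon and T98G sgCon cells were kept in DMEM, to which 10% fetal bovine serum was added. The labels give the cell type as glioma and the tissue as glial cells. They state no time point, no Cas9 or vector details, no clone number and no sequence of the control guide, which both groups carry. Nothing in them ties the 3 libraries of a line to separate cultures. Every p-value below therefore reflects library-to-library spread, of which an unknown part may be technical.

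Library totals were 94.1, 48.2 and 48.2 M counts for LN229 sgCon and 54.1, 53.5 and 50.9 M for T98G sgCon. No pair of replicates agreed within sampling noise, with a chi-square per gene of 4.05 to 5.40, and the common biological coefficient of variation was 4.61%. Levels are CPM, counts scaled to library size with TMM factors, as mean ± SD over n = 3 libraries, and per-library values are listed in the order of the replicate numbers. Differences are log2 fold changes of T98G over LN229 with an SE, so that a positive value is higher in T98G. Adjusted p-values are from edgeR's quasi-likelihood test over all genes tested. The SE of a difference was derived from the fold change and the F statistic of that test. It is too small as an error of the fold where a line has only a few counts. In bulk RNA, fewer expressing cells and less RNA per cell cannot be told apart. DDA1 itself stood at 48.9, 50.7 and 50.6 CPM in the LN229-labelled libraries and at 63.1, 70.4 and 69 CPM in T98G. It was higher in all 3 T98G libraries, by 0.43 ± 0.04 (adjusted p = 1.18e-09).

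The labels were checked against known features of the lines, and the libraries labelled LN229 did not match. LN229 is catalogued with a deletion of CDKN2A, the locus of the cell-cycle inhibitor p16 and of ARF. The LN229-labelled libraries held CDKN2A (chr9:21967753-21995301, minus strand, GRCh38) at 55.2, 59.3 and 52 CPM, against 0.556, 0.321 and 0.401 CPM in T98G. T98G is also catalogued as CDKN2A-deleted, and its libraries were low. The mesenchymal surface receptor CD44 was nearly absent from the LN229-labelled libraries, and the RNA-binding proteins LIN28B and IGF2BP1 of the embryonic programme were abundant there, as given below. No other identity is assigned here. LN229 stands below for the label, and directions drawn from it describe these libraries.

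Of the defining glial markers, GFAP, S100B and AQP4 were low in both lines. VIM was not low in either line, nor were SOX2 and the glutamate transporter SLC1A3 in LN229. Of the 10 glial markers 8 were tested. At 2-fold, 2 were higher in T98G, VIM and SOX9, and 4 were lower, AQP4, SOX2, SLC1A3 and NES. The astrocyte filament GFAP stood at 0.231, 0.329 and 0.115 CPM in the LN229-labelled libraries and 0.337, 0.201 and 0.422 CPM in T98G, which overlapped (0.5 ± 0.46, adjusted p = 0.322). The calcium-binding protein S100B had a mean of 0.0127 CPM in LN229 and was at 0 in T98G, and the water channel AQP4 was at 0.816 ± 0.0203 CPM in LN229 and at 0 in every T98G library. The summed level of the 10 glial markers was 219.6 to 235 CPM in the LN229-labelled libraries and 1006 to 1046 CPM in the T98G libraries. Its largest member in T98G was the filament VIM, at 85.2 ± 4.24 CPM in LN229 and 910.4 ± 22.6 CPM in T98G. The neural stem cell factor SOX2 was at 19.2, 18.9 and 19.3 CPM in the LN229-labelled libraries and at 0.0595, 0.16 and 0.169 CPM in T98G, with no overlap.

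Among markers of cells that a glioma culture could carry over from tissue, those of microglia, macrophages and endothelium were sparse. The summed level of 8 microglia and macrophage markers was 2.91 to 3.6 CPM in the LN229-labelled libraries and 6.89 to 8.47 CPM in the T98G libraries, and that of 7 endothelial markers was 1.65 to 1.88 CPM in the LN229-labelled libraries and 3.08 to 3.93 CPM in the T98G libraries. The leukocyte phosphatase PTPRC averaged 0.0067 and 0.0809 CPM, and the endothelial cadherin CDH5 0.0295 and 0.0132 CPM, in LN229 and T98G respectively. The 8 oligodendrocyte-lineage markers summed to 13.4 to 14.3 CPM in the LN229-labelled libraries and 4.67 to 5.99 CPM in the T98G libraries, and the 8 neuronal markers to 64 to 65.9 CPM in the LN229-labelled libraries and 18.4 to 22.3 CPM in the T98G libraries. The largest neuronal member was the neurofilament NEFL in LN229, at 33.9 ± 0.353 CPM, and the synaptic protein SNAP25 in T98G, at 12.5 ± 1.62 CPM. The 9 fibroblast and pericyte markers summed to 44.8 to 48.5 CPM in the LN229-labelled libraries and 377 to 406 CPM in the T98G libraries. That sum was carried by PDGFRB and THY1, at 175 and 198 CPM in T98G, while the defining fibroblast proteoglycan DCN averaged only 0.203 CPM there. The 8 epithelial markers summed to 81.2 to 86.8 CPM in the LN229-labelled libraries and 96.8 to 102 CPM in the T98G libraries, in both lines mostly the keratins KRT8 and KRT18. The part of other cells in the line difference was not tested.

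As background, glioblastoma cells are described along states that resemble neural progenitors, oligodendrocyte progenitors, astrocytes and mesenchymal cells. The mesenchymal state is known for CD44, matrix and wound-response genes and for signalling through NF-kB. Interferon-stimulated genes answer a complex that holds STAT2 and IRF9 and binds a short element in their promoters. The transcription factor NRF2 induces antioxidant and detoxifying enzymes, and MGMT and DNA repair proteins set the response of glioma cells to temozolomide.

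Some genes had a mean of at least 10 CPM in one line, called on here, and no more than 3 counts in any library of the other, and the promoters of a few are printed here so that their base composition can be seen. Of these genes, 12 were on in T98G and 3 in the LN229-labelled libraries. Each sequence runs from 250 bases before the start of the gene to 50 bases after it, from RefSeq on GRCh38.p14, on the gene's own strand, and the CG dinucleotides, the sites of DNA methylation, are in capitals. GIMAP2, a GTPase of immune cells, lies at chr7:150685456-150685755, plus strand. P2RX7, an ATP-gated channel, lies at chr12:121132626-121132925, plus strand, and ITGBL1, a secreted integrin-like protein, at chr13:101452425-101452724, plus strand. These were on in T98G. HRK, a pro-apoptotic BH3 protein, at chr12:116881392-116881691, minus strand, and ACADL, an acyl-CoA dehydrogenase of fatty acid oxidation, at chr2:210225398-210225697, minus strand, were on in the LN229-labelled libraries.
GIMAP2: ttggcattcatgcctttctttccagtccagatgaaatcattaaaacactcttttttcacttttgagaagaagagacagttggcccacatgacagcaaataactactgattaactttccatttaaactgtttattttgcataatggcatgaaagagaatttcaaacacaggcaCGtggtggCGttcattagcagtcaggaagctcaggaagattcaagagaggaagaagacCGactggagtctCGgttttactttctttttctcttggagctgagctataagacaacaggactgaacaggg
P2RX7: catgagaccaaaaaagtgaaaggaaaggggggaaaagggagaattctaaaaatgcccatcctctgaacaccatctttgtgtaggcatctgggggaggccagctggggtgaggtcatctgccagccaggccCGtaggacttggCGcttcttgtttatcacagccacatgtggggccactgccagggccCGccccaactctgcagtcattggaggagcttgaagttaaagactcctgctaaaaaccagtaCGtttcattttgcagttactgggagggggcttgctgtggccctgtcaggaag
ITGBL1: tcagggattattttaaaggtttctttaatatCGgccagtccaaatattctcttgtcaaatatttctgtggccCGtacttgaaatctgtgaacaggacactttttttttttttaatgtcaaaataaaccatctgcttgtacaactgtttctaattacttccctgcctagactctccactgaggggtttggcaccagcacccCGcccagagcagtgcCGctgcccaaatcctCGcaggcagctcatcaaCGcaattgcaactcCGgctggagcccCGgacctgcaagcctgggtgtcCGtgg
HRK: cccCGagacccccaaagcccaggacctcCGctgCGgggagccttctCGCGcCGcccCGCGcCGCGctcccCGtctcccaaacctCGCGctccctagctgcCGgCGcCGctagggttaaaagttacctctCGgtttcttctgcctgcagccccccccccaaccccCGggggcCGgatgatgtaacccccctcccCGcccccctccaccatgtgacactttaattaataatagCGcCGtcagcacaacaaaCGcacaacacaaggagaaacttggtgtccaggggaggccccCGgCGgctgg
ACADL: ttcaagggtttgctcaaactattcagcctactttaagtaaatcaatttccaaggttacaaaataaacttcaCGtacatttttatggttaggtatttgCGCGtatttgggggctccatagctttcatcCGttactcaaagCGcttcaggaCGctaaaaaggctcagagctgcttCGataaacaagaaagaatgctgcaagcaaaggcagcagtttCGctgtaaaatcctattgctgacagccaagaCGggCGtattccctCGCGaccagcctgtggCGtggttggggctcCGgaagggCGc

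GIMAP2 held 4 CG dinucleotides in 300 bases, P2RX7 held 4 and ITGBL1 held 9, against 25 in HRK and 15 in ACADL. Scaled to base content, the ratio of observed to expected CG was 0.329, 0.19 and 0.54 for the first 3 and 0.82 and 0.919 for the last 2. Among protein-coding genes with a RefSeq promoter, 64.3% of 515 genes at least 8-fold higher in T98G had a ratio of 0.6 or more, against 88.1% of 327 genes at least 8-fold lower. The share was 95.3% of the 3451 genes within 0.5 of 0 on the log2 scale and 84.5% of all 11722 protein-coding genes tested that had a promoter in the table. The first 3 sets were limited to genes with at least 10 CPM in the higher line. Of the 12 genes on in T98G, 8 had a promoter in the table, and 2 of those (25%) had a ratio of 0.6 or more, with a median of 11.5 CG in the window.

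At the level of values, GIMAP2 was at 0.0201, 0.0387 and 0.0382 CPM in the LN229-labelled libraries and 23.2, 24.1 and 20.7 CPM in T98G (9.48 ± 0.19, adjusted p = 3.12e-25). P2RX7 was at 0.0201, 0 and 0 CPM against 18.2, 19.4 and 18 CPM, from 2 counts in LN229 to 2734 in T98G, a ratio of scaled levels of 1885 with a 95% counting interval of 521 to 15570. Each was near or under the floor of 3 counts in the LN229-labelled libraries, which is at most 0.0634 CPM, and clearly above it in T98G. In the other direction HRK was at 13.2, 13.4 and 13.8 CPM in the LN229-labelled libraries and 0, 0.0401 and 0.0422 CPM in T98G (-8.84 ± 0.24, adjusted p = 2.67e-22). ACADL was at 11.1, 11.8 and 9.45 against 0, 0.0401 and 0.0422 CPM (-8.53 ± 0.27). The other genes on in T98G were the metallothionein MT1E, the endocytic protein OCIAD2, the TLR4 co-receptor LY96, the phosphatase PTPRN2, the protease ADAM12, the homeobox gene IRX1, the enamel protein AMTN, the zinc finger gene ZNF682 and the Notch-binding protein DNER. The third gene on in LN229 at that level was the corepressor RUNX1T1. MT1E shares reads with near-identical metallothioneins, so its value is uncertain.

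Most genes differed between the lines. With adjusted p under 0.05, 8489 genes were higher in T98G (40.1%) and 8626 lower (40.8%), so that 80.9% of genes tested were called. A call therefore says little by itself, and the counts below use genes that were also at least 2-fold apart. These were 4768 higher in T98G (22.5%) and 4726 lower (22.3%), 44.9% in all. At 8-fold they were 1865 (8.82%) and 1804 (8.53%). The 2-fold counts of each list below are to be set against the 2-fold shares of all genes. The libraries of the lines did not overlap for 82.2% of genes. The median of all genes was -0.02 and the median absolute difference was 0.87. Abundant genes leaned to T98G. Among the 2465 genes above 100 CPM on average 524 were 2-fold higher in T98G and 172 lower, whereas among the 5911 genes below 1 CPM 1372 were higher and 2027 lower. By gene type, 3284 protein-coding genes were 2-fold higher and 2996 lower of 14767, and long noncoding genes (lincRNA and antisense classes) gave 878 and 795 of 3084.

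**Figure D1:**
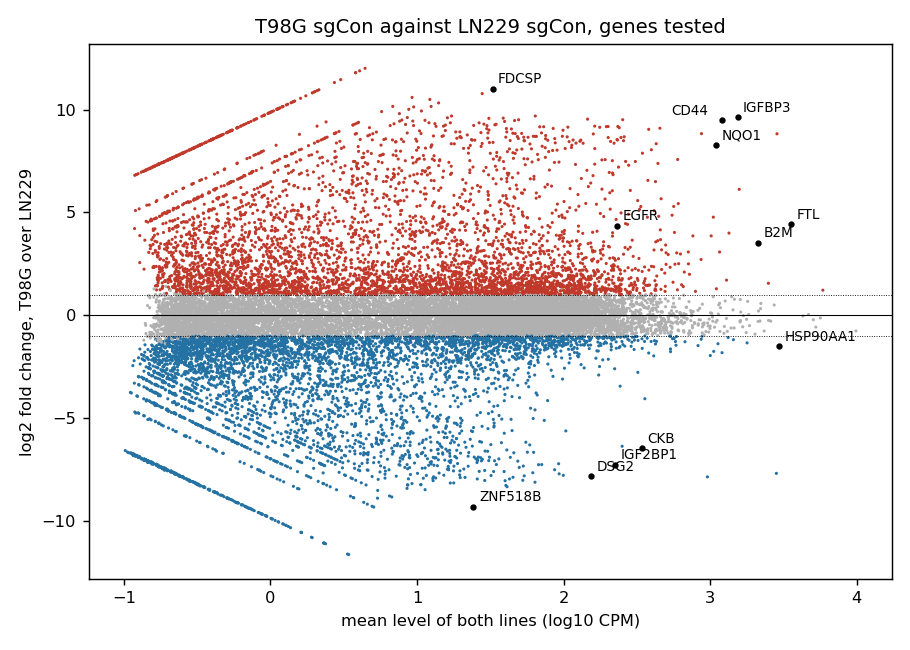
Log2 fold change of T98G over LN229 (y) against the mean level of both lines in log10 CPM (x) for the 21149 genes tested, with genes at least 2-fold higher in T98G in red, at least 2-fold lower in blue and others in grey; dotted lines mark 2-fold. IGFBP3 at 9.64 and CD44 at 9.5 stand out at high level on the T98G side, and IGF2BP1 at -7.27 and DSG2 at -7.84 on the LN229 side.

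On the FPKM scale, which divides by gene length and so allows levels of different genes to be set side by side, ferritin light chain had the highest value in T98G among genes named here. FTL was at 7280.0 ± 201 FPKM in T98G and 385 ± 10.0 in LN229. NQO1, a quinone reductase, was at 689.9 ± 19.4 FPKM in T98G and 2.58 ± 0.423 in LN229, and IGFBP3, an insulin-like growth factor binding protein, at 628 ± 21.2 and 0.966 ± 0.29. Among genes higher in the LN229-labelled libraries, the ribosomal protein gene RPS4X was at 688 ± 5.58 FPKM there and 169 ± 6.71 in T98G. Creatine kinase B (CKB), an energy-buffering enzyme of brain, was at 305 ± 4.65 and 2.97 ± 0.26 FPKM.

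Low levels of T98G genes in the LN229-labelled libraries were not equal across libraries. Over the 90 protein-coding genes with at least 100 CPM in T98G and under 1% of that level in LN229, the median level was 0.244% of the T98G level in LN229 sgCon 1, 0.337% in LN229 sgCon 2 and 0.376% in LN229 sgCon 3. LN229 sgCon 1 was the lowest of the 3 libraries for 64 of these genes. In the other direction, over 16 genes, the medians were 0.537% to 0.575% in the T98G libraries. The largest folds below rest on such traces in the lower line, and whether these are transcription in it or RNA or reads from other samples was not tested.

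Mesenchymal genes were almost uniformly higher in T98G. Of 29 mesenchymal state markers tested, 27 were at least 2-fold higher in T98G, 1 was 2-fold lower, and the median was 3.86 against -0.02 over all genes. CD44, the hyaluronan receptor, was at 2.51, 3.68 and 4.37 CPM in the LN229-labelled libraries and at 2361, 2439 and 2453 CPM in T98G. No library of one line came near those of the other, and the difference was 9.5 ± 0.09 (adjusted p = 5.91e-33). LGALS1, a galactose-binding lectin, was at 3.25, 4.14 and 3.06 CPM against 628, 608 and 608 CPM (7.48 ± 0.06). The matrix protein TGFBI was at 4.1 ± 1.37 against 1743 ± 33 CPM (8.84 ± 0.10). Transcription factors of the state were higher too, with RUNX1 at 4.27 ± 0.06, CEBPB at 4.28 ± 0.06, STAT3 at 1.72 ± 0.04 and the AP-1 member FOSL1 at 8.52 ± 0.08. The one member that was 2-fold lower was podoplanin (PDPN), a membrane mucin, at 32.5, 32.3 and 31.1 CPM in the LN229-labelled libraries and 0.278, 0.321 and 0.38 CPM in T98G (-6.61 ± 0.12).

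Matrix genes followed the same direction with exceptions in each family. Of 23 collagen genes tested, 16 were 2-fold higher in T98G and 4 lower. COL6A3, a chain of microfibrillar collagen VI, was at 9.34, 14 and 15.6 CPM in LN229 and 5722, 5670.0 and 5741 CPM in T98G (8.83 ± 0.10), and COL1A2, a chain of collagen I, at 0.74 ± 0.366 against 402 ± 11.2 CPM. The partner chain COL1A1 did not follow, at 13.2 ± 0.977 and 11.2 ± 0.779 CPM (-0.24 ± 0.08, adjusted p = 0.0125). The collagen genes 2-fold lower in T98G were the basement membrane chains COL4A5 (-2.29 ± 0.05) and COL4A6 (-2.18 ± 0.08), and COL9A3 and COL14A1. Of 24 matrix glycoproteins and proteoglycans, 17 were 2-fold higher and 5 lower, with thrombospondin THBS1 at 1.75 ± 0.424 against 908 ± 64.1 CPM and fibrillin FBN2 in the other direction at 142 ± 8.31 against 22.3 ± 1.57 CPM.

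Matrix proteases and their inhibitors were mostly higher in T98G. Of 27 tested, 23 were 2-fold higher and 3 lower, with a median of 4.77. Stromelysin MMP3 was at 0.0402, 0.0194 and 0.0191 CPM in LN229 and 57.9, 52.6 and 56.6 CPM in T98G (10.78 ± 0.14, adjusted p = 7.73e-30), and urokinase PLAU at 0.833 ± 0.238 against 469 ± 4.72 CPM (9.19 ± 0.07). The gelatinase MMP2 differed by 7.3 ± 0.06, membrane-bound MMP14, which activates it, by 6.65 ± 0.06, and their inhibitor TIMP3 by 4.77 ± 0.05. ADAMTS1 (-2.42 ± 0.06), MMP16 (-2.39 ± 0.11) and tissue plasminogen activator PLAT (-1.53 ± 0.07) were lower. Among 27 integrin and laminin subunits, 19 were 2-fold higher and 4 lower. The collagen receptor chain ITGA11 (6.24 ± 0.08) and the fibronectin receptor chain ITGA5 (3.52 ± 0.04) were higher, and the laminin chains LAMA1, LAMA3 and LAMA5 were lower by -4.19, -3.6 and -3.61 on the log2 scale.

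Interferon-stimulated genes were higher in T98G almost throughout. Of 34 tested, 31 were 2-fold higher in T98G and 0 were 2-fold lower, with a median of 4.77. SAMD9L, an antiviral factor, was at 1.32, 1.41 and 1.68 CPM in the LN229-labelled libraries and 788, 734 and 762 CPM in T98G (9.05 ± 0.06, adjusted p = 1.3e-34). OAS1, which makes the activator of RNase L, was at 0.664 ± 0.165 against 232 ± 13.2 CPM, and XAF1 at 0.292 ± 0.0446 against 114 ± 1.29 CPM. Of the signalling genes, STAT2 differed by 2.34 ± 0.04 and IRF9 by 1.64 ± 0.13. The members under 2-fold were IFIT1 (0.82 ± 0.04), IFIT2 (0.88 ± 0.04) and HERC5 (-0.78 ± 0.04), and HERC5 was lower in T98G.

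The interferon response element was taken as GAAA, any 2 bases and GAAA again, and was searched on both strands, with overlapping matches counted. It was found in 17 of 24 interferon-stimulated genes with a RefSeq promoter (70.8%), against 4.14% of the protein-coding genes tested and 4.38% of all 27305 genes in the promoter table. RSAD2 (chr2:6877527-6877826, plus strand), GBP1 (chr1:89065159-89065458, minus strand) and BST2 (chr19:17405581-17405880, minus strand) are printed as the members with the largest differences among those that hold a match, with the match in capitals. The sequences are from RefSeq on GRCh38.p14. RSAD2, GBP1 and BST2 encode antiviral proteins.
RSAD2: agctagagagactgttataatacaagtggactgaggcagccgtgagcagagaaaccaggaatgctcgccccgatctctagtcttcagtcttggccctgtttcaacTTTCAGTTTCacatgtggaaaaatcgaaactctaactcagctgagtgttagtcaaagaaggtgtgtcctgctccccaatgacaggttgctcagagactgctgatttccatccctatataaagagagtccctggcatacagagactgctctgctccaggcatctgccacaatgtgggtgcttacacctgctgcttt
GBP1: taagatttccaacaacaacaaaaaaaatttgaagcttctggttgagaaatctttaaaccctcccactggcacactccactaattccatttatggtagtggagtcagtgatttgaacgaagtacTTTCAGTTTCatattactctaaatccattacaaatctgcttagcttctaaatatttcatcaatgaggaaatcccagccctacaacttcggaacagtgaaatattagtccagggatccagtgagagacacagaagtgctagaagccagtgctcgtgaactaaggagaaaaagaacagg
BST2: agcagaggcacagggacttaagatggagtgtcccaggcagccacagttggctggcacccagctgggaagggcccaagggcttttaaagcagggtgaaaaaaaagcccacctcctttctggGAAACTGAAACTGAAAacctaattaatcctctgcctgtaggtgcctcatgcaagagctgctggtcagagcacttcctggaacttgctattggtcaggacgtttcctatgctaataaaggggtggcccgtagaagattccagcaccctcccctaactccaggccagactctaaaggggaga

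RSAD2 and GBP1 carried 1 match each, on the opposite strand to the gene, and BST2 carried 2 overlapping ones. RSAD2 differed by 8.53 ± 0.07, GBP1 by 8.46 ± 0.06 and BST2 by 8.46 ± 0.07. A match describes these letters and is not evidence of binding.

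Antigen presentation genes were higher in T98G for both class I and most class II genes. Of 27 tested, 23 were 2-fold higher and 2 lower. B2M, the light chain of class I molecules, was at 347, 339 and 336 CPM in LN229 and 3980.0, 3922 and 3820.0 CPM in T98G (3.52 ± 0.04, adjusted p = 1.57e-31). The immunoproteasome subunits PSMB8 and PSMB9 were at 0.29 ± 0.036 against 141 ± 11.6 CPM and at 0.694 ± 0.215 against 109 ± 7.43 CPM. The class I regulator NLRC5 differed by 4.95 ± 0.08 and the class II regulator CIITA by 3.49 ± 0.10. The class II chain HLA-DRA was at 0.0895 ± 0.138 against 14.8 ± 1.33 CPM, while HLA-DQB1 was lower in T98G at 7.42 ± 0.367 against 0.0474 ± 0.0305 CPM. HLA genes share reads and vary between people, so counts of single HLA genes are uncertain. The checkpoint ligand CD274 differed by 6.11 ± 0.15.

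Of 39 chemokine, interleukin and NF-kB genes, 32 were tested, 29 were 2-fold higher in T98G and 1 was 2-fold lower. IL6, a cytokine that signals through STAT3, was at 0.126 ± 0.0663 against 67.9 ± 2.29 CPM, and CXCL12, the ligand of CXCR4, at 0.0841 ± 0.0278 against 61.8 ± 1.41 CPM (9.58 ± 0.11). CXCL8, which attracts neutrophils, differed by 7.21 ± 0.11, CCL2, which attracts monocytes, by 7.63 ± 0.09, and the adhesion molecule ICAM1 by 4.53 ± 0.18. CCL5 was present in both lines, at 85.5, 96 and 97.1 CPM in LN229 and 879, 855 and 788 CPM in T98G. Of the NF-kB subunits in the list, NFKB1 differed by 0.27 ± 0.04, NFKB2 by 0.68 ± 0.04 and RELB by 1.66 ± 0.10. The member 2-fold lower in T98G was CXCL2 (-6.82 ± 1.16). Its SE was far larger than the others given here, so the size of that difference is uncertain. The summed level of the 8 microglia and macrophage markers stayed under 10 CPM in every library.

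**Figure D2:**
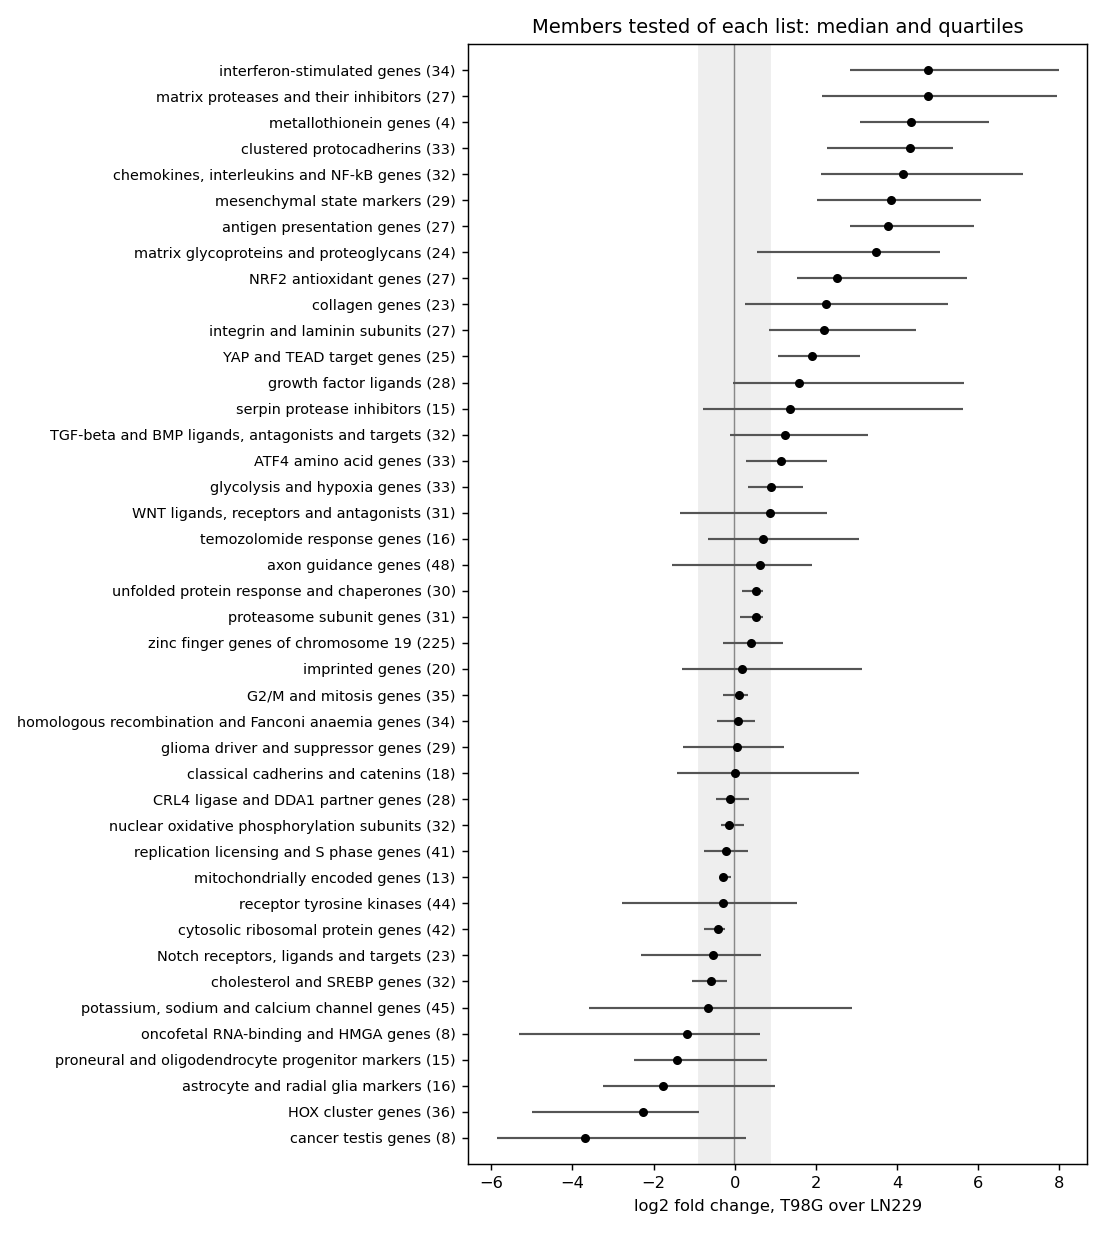
Median (point) and quartiles (line) of the log2 fold change of T98G over LN229 over the tested members of each of 42 gene lists, with the number tested in brackets; the grey band and line are the quartiles and median of all 21149 genes tested. Interferon-stimulated genes (4.77) and matrix proteases (4.77) lie highest, HOX cluster genes (-2.26) near the bottom, and cell-cycle, repair and respiratory lists near 0.

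Antioxidant and iron-storage genes were higher in T98G. Of 27 NRF2 genes tested, 23 were 2-fold higher in T98G and 2 lower, with a median of 2.51. NQO1 was at 5.94, 8.15 and 7.37 CPM in the LN229-labelled libraries and 2265, 2195 and 2142 CPM in T98G (8.3 ± 0.07, adjusted p = 9.18e-34). FTL was at 308, 316 and 315 CPM against 6913, 6915 and 6594 CPM (4.44 ± 0.04), and FTH1, the ferritin heavy chain, at 229.8 ± 2.06 against 1507 ± 39.6 CPM. SLC7A11, the cystine importer, was at 30.8 ± 2.28 against 862 ± 22.1 CPM, and the glutathione synthesis enzyme GCLC differed by 2.8 ± 0.04. The aldo-keto reductases AKR1B10, AKR1C1 and AKR1C2 differed by 8.45, 8.68 and 8.35, of which the AKR1C genes are near-identical copies and can share reads, as can ferritin genes and their pseudogenes. Malic enzyme ME1 went the other way, at 31.5, 28.9 and 27.5 CPM in LN229 and 0.298, 0.241 and 0.486 CPM in T98G (-6.43 ± 0.14).

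The antioxidant element searched in promoters was TGAC, any 3 bases and GC, on both strands with overlapping matches counted. It was present in 5 of 19 NRF2 genes with a promoter (26.3%) and in 19.2% of protein-coding genes tested, in a window of 300 bases. Metallothioneins, which bind zinc and copper, were low or absent in LN229. Of 8 in the table, 4 were tested and all 4 of those were 2-fold higher in T98G, with MT2A at 15.3 ± 1 against 479 ± 23.4 CPM. ATF4 amino acid genes had 18 of 33 members 2-fold higher and 2 lower. They included the stress factor NUPR1 (6.87 ± 0.16), while the mitochondrial folate enzyme ALDH1L2 (-5.41 ± 0.10) and ALDH18A1, of proline synthesis, were lower. Of 33 glycolysis and hypoxia genes, 16 were 2-fold higher and 1, the aldolase ALDOC, was lower. The lactate exporter SLC16A3 stood at 2.15 ± 0.241 against 164 ± 4.79 CPM.

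Genes of glioma biology split evenly, as did all genes (22.5% higher and 22.3% lower). Of 29 driver and suppressor genes, 9 were 2-fold higher in T98G and 9 lower, 62.1% together against 44.9% of all genes. EGFR, the receptor most often amplified in glioblastoma, was at 22.2, 22 and 20.3 CPM in LN229 and 436, 445 and 443 CPM in T98G (4.36 ± 0.04, adjusted p = 2.17e-32). The receptor MET differed by 1.75 ± 0.04, PIK3CA by 1.58 ± 0.04 and the cyclin-dependent kinase CDK6 by 1.21 ± 0.03. CDK4 (0.05 ± 0.04, adjusted p = 0.287) and telomerase TERT (0.05 ± 0.16, adjusted p = 0.771) did not pass the test. MYC was lower in T98G, at 192 ± 7.25 against 70.2 ± 2.33 CPM (-1.45 ± 0.04), as were MDM2 (-1.48 ± 0.04) and FGFR3 (-2.69 ± 0.05).

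Other members of the driver list regulate the G1 phase of the cell cycle, and CDKN2A among them was given above. CDKN2C (p18) was at 85.3 ± 0.529 CPM in the LN229-labelled libraries and 0.337 ± 0.116 CPM in T98G (-7.97 ± 0.09), whereas CDKN2B (p15), the neighbour of CDKN2A, was at 17.3 ± 0.785 against 35.5 ± 0.707 CPM and MTAP, on the other side of CDKN2A, at 79.8 ± 3.02 against 54 ± 0.569 CPM. Cyclin D1 (CCND1) was higher in T98G (2.31 ± 0.04) and cyclin D2 (CCND2) lower (-7.61 ± 0.11).

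Temozolomide response genes differed in both directions. Of 16 tested, 8 were 2-fold higher in T98G and 3 lower. MGMT, which removes methyl groups from guanine, was at 0.0603, 0.0775 and 0 CPM against 7.16, 6.54 and 7.6 CPM (7.12 ± 0.28, adjusted p = 8.89e-19). The LN229-labelled libraries held 6, 4 and 0 counts, and no library of theirs came near those of T98G. The repair genes PMS2 (0.29 ± 0.05) and MSH6 (-0.71 ± 0.04) differed by less than 2-fold. Of the exporters, ABCC3 (7.96 ± 0.07) and ABCG2 (2.39 ± 0.09) were higher in T98G and ABCB1 (-3.03 ± 0.17) lower.

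The promoter of MGMT (chr10:129466991-129467290, plus strand) is shown with CG in capitals because its silencing by methylation is known in tumours. Methylation was not measured here. The window holds 45 CG, in a sequence from RefSeq on GRCh38.p14.
MGMT: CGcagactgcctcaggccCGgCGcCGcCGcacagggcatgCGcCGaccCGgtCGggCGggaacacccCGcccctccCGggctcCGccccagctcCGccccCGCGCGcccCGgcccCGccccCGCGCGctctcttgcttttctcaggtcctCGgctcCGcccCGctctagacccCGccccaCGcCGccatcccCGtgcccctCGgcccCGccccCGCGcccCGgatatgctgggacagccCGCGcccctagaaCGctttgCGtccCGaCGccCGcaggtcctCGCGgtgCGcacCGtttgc

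**Figure D3:**
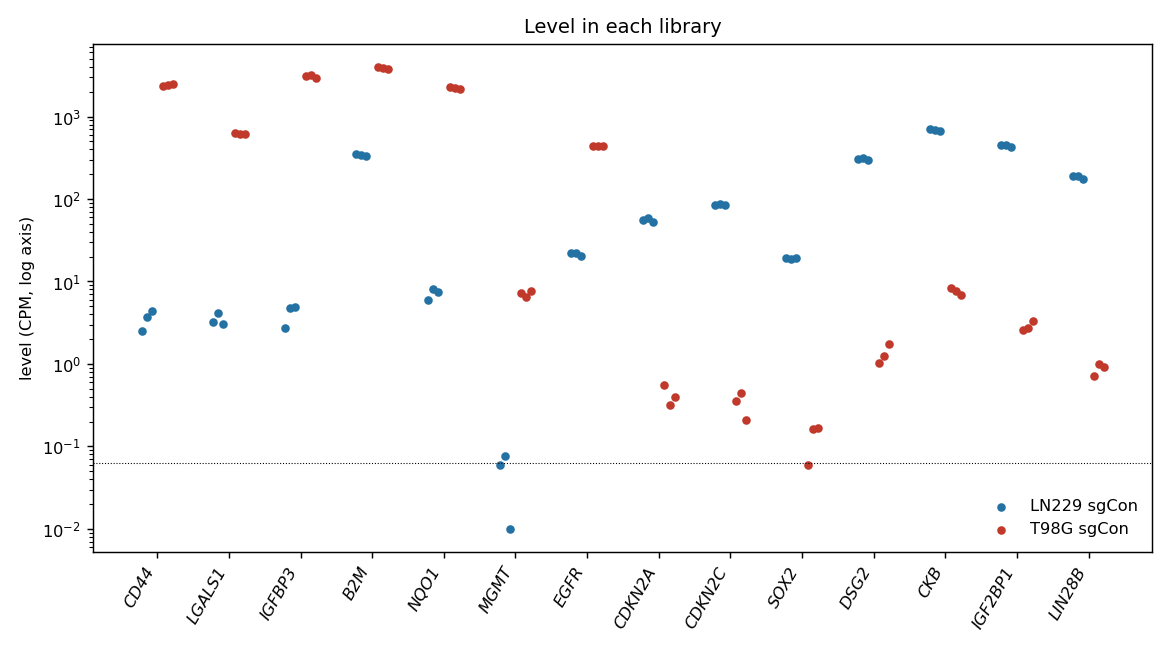
Level in CPM (log axis) of 14 genes in each of the 3 LN229 sgCon (blue) and 3 T98G sgCon (red) libraries; each point is a library, a value of 0 is drawn at 0.01, and the dotted line is the highest floor of 3 counts per library. The lines do not overlap for any of these genes, from CD44 at 3.52 against 2418 CPM to LIN28B at 186 against 0.882 CPM on average.

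Of 12 oncofetal and HMGA genes, 8 were tested, 2 were 2-fold higher in T98G and 5 lower. LIN28B, which blocks maturation of the let-7 microRNAs, was at 190.4, 190.1 and 177 CPM in the LN229-labelled libraries and 0.714, 1 and 0.929 CPM in T98G (-7.72 ± 0.07, adjusted p = 1.73e-32). IGF2BP1, an mRNA-binding protein of embryonic tissue, was at 454, 449 and 431 against 2.58, 2.75 and 3.32 CPM (-7.27 ± 0.06). Both were high in every LN229-labelled library and under 4 CPM in T98G, while the related IGF2BP3 was higher in T98G (1.45 ± 0.04). DSG2, a desmosomal cadherin, was at 307, 315 and 299 CPM against 1.03, 1.26 and 1.73 CPM (-7.84 ± 0.07), and DSC3 at 105 ± 5.6 against 0.397 ± 0.109 CPM.

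CKB was at 698, 679 and 659 CPM in LN229 and 8.23, 7.64 and 6.91 CPM in T98G (-6.48 ± 0.05, adjusted p = 7.61e-34). Glutamine synthetase (GLUL), an astrocyte enzyme, was at 446 ± 10.4 against 40.7 ± 2.4 CPM, and the glutamate transporter SLC1A3 at 103 ± 5.33 against 11.5 ± 0.693 CPM. The eye and forebrain factor PAX6 was at 35.1 ± 0.564 against 0.922 ± 0.0253 CPM. Of 16 astrocyte and radial glia markers tested, of 20 listed, 4 were 2-fold higher in T98G and 9 lower. The 4 higher members included SOX9 (3.64 ± 0.05) and ID3 (2.59 ± 0.04). Of 15 proneural and oligodendrocyte progenitor markers tested, of 20 listed, 4 were 2-fold higher and 8 lower. SOX11 was at 0.0924 ± 0.0772 against 79.1 ± 4.54 CPM and CD24 at 0.843 ± 0.0467 against 88.8 ± 4.97 CPM. The Notch ligand DLL3 was at 3.86 CPM in LN229 and at 0 counts in T98G, at least 60.9-fold lower against a floor of 3 counts per library.

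The HOX genes, which set position along the body axis, were lower in T98G. Of 39 genes 36 were tested, 25 were 2-fold lower and 1 was 2-fold higher, with a median of -2.26. HOXA9 was at 58.9, 59.6 and 54.5 CPM in LN229 and 0.318, 0.461 and 0.127 CPM in T98G (-7.55 ± 0.12). HOXB7 differed by -5.82 ± 0.18 and HOXD10 by -2.49 ± 0.06. HOXC genes were mixed, with HOXC13 at 7.01 ± 0.38 against 30.3 ± 1.84 CPM as the member 2-fold higher, HOXC10 at 0.78 ± 0.06 and HOXC9 at -2.38 ± 0.11.

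Other clustered genes leaned to T98G. Of 52 clustered protocadherins on chromosome 5, adhesion molecules expressed by choice of promoter, 33 were tested, 31 were 2-fold higher and 2 lower. All were at low levels, with summed values of 11.6 to 12.7 CPM in the LN229-labelled libraries and 152 to 166 CPM in the T98G libraries. PCDHB16 was at 0.0359 ± 0.0155 against 8.4 ± 1.69 CPM, and PCDHB10 was at 0 in LN229 and 2.88 ± 0.628 CPM in T98G, at least 45.5-fold higher. The genes of this cluster share exons and sequence, so their single counts are uncertain. Of 240 zinc finger genes of chromosome 19, 225 were tested, 72 were 2-fold higher and 21 lower. Together these made up 41.3%, near the 44.9% of all genes. ZNF43 was at 0.0452 ± 0.0293 against 34.4 ± 0.922 CPM, and ZNF730 was at 0 in LN229 and 7.61 ± 0.386 CPM in T98G, at least 120.0-fold higher.

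Germline genes were mostly silent in both lines. Of 37 cancer testis genes with counts listed, 8 were tested, with 2 higher in T98G at 2-fold and 5 lower. PRAME was at 52.1 ± 2.6 against 0.436 ± 0.134 CPM and MAGEB2 at 41.6 ± 2.83 against 0.231 ± 0.064 CPM. Of 30 imprinted genes, which are expressed from 1 parental copy, 20 were tested, 7 were 2-fold higher and 6 lower. MEG3, a noncoding tumour suppressor, was at 0.0402, 0 and 0.0382 CPM in LN229 and 18.4, 18.7 and 19.7 CPM in T98G (9.23 ± 0.21). PLAGL1 went the other way, at 108, 108 and 106 against 0.337, 0.501 and 0.591 CPM (-7.82 ± 0.08). Long noncoding RNAs with the largest differences included MIR100HG (9.59 ± 0.11), host of the miR-100 cluster, on the T98G side and LINC01515 (-8.49 ± 0.17) on the LN229 side.

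Receptor tyrosine kinases differed in both directions. Of 44 receptor tyrosine kinases tested, 17 were 2-fold higher in T98G and 17 lower, 77.3% together against 44.9% of all genes. PDGFRB was at 0.535 ± 0.15 against 175 ± 1.88 CPM and the TAM receptor AXL at 0.735 ± 0.0257 against 227 ± 5.83 CPM. In the other direction the ephrin receptor EPHA7 was at 79.6 ± 4.16 against 0.296 ± 0.164 CPM and FGFR2 at 26.7 ± 1.77 against 0.218 ± 0.104 CPM. Of 28 growth factor ligands tested, 17 were higher and 5 lower. The lymphangiogenic factor VEGFC (8.49 ± 0.09) and neuregulin NRG1 (8.4 ± 0.10) were higher, and FGF5 (-5.7 ± 0.36) and PGF (-4.51 ± 0.19) lower.

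In WNT signalling 14 of 31 genes were 2-fold higher and 11 lower, with WNT5A, a non-canonical ligand, at 22.9 ± 1.58 against 507 ± 9.06 CPM and the antagonist DKK3 at 2.15 ± 0.208 against 287 ± 3.18 CPM. WNT11 was lower (-6.52 ± 0.27), and the receptor FZD10 was at 2.42 CPM in LN229 and at 0 counts in T98G. In the TGF-beta and BMP list 17 of 32 were higher and 7 lower. TGFB2 was at 1.71 ± 0.238 against 90.1 ± 4.24 CPM, the activin chain INHBA at 0.0879 ± 0.0427 against 37.3 ± 2.43 CPM and the BMP target ID1 at 5.69 ± 0.0863 against 215 ± 7.92 CPM, while the related ID4 was lower (-3.06 ± 0.06). Notch was the signalling list with more members lower, 10 of 23 against 6 higher. JAG1 was higher (3.64 ± 0.06) and JAG2 lower (-7.1 ± 0.13), and the targets HES1 (-1.46 ± 0.06) and HEYL (-7.35 ± 0.29) were lower.

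Of 25 YAP and TEAD targets, 19 were 2-fold higher and 2 lower. CCN1 (3.06 ± 0.05) and CCN2 (3.05 ± 0.14) were higher, and so was IGFBP3, at 2.73, 4.72 and 4.87 CPM in LN229 and 3130.0, 3151 and 2964 CPM in T98G (9.64 ± 0.10). ANKRD1, another common readout of YAP, was lower in T98G (-3.58 ± 0.07). Ion channel genes gave 17 higher and 22 lower of 45 (86.7% together). The potassium channel subunit KCNE4 was at 0.308 ± 0.0974 against 124 ± 1.35 CPM and the calcium channel CACNA1H at 44.3 ± 2.2 against 0.375 ± 0.205 CPM. Axon guidance genes gave 16 and 15 of 48 (64.6% together), with SEMA3C at 13.2 ± 0.624 against 628 ± 18.9 CPM. Cadherins outside the clusters gave 7 and 5 of 18. CDH6 was at 0.171 ± 0.117 against 128 ± 2.35 CPM and CDH11 at 0.282 ± 0.0669 against 63 ± 1.75 CPM. Of 15 serpins tested, 8 were higher and 4 lower.

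Housekeeping and proliferation lists held few 2-fold differences. Of 35 G2/M genes 3 were 2-fold higher and 0 lower (median 0.10), and at any size 18 were called higher and 14 lower. Of 41 replication genes 1 was 2-fold higher and 6 lower, with the helicase subunit MCM2 at 345 ± 13.7 against 113 ± 1.94 CPM. Of 34 homologous recombination and Fanconi genes 3 were higher and 1 lower. FANCF, an adaptor of the Fanconi core complex, was at 1.09 ± 0.27 against 18.6 ± 1.02 CPM (4.08 ± 0.13), and the meiotic recombinase DMC1 was lower (-5.75 ± 0.16). BRCA2 (0.00 ± 0.05) stayed near 0.

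Of 42 cytosolic ribosomal protein genes, 32 were called lower in T98G, but only 2 at 2-fold, with a median of -0.42. Their summed level was 30996 to 31877 CPM in the LN229-labelled libraries and 21879 to 22623 CPM in the T98G libraries. RPL24 was at 1638 ± 14 against 626 ± 8.38 CPM. Ribosomal protein genes have many pseudogenes that can share reads. Nuclear respiratory subunits gave 0 higher and 1 lower of 32 at 2-fold, and of the 13 mitochondrially encoded genes 9 were called lower and 0 passed 2-fold (median -0.28). Mitochondrial transcripts made up 5.16% to 5.75% of counts in LN229 and 4.20% to 4.53% in T98G. Of 32 cholesterol and SREBP genes 11 were 2-fold lower and 2 higher, 40.6% together against 44.9% of all genes. Fatty acid synthase FASN was at 596 ± 17.6 against 167 ± 2.52 CPM. The higher members were the desaturases FADS1 (1.31 ± 0.04) and FADS2 (1.82 ± 0.04). Chaperones gave 4 higher and 1 lower of 30, the last being HSP90AA1 (-1.51 ± 0.03), and proteasome subunits 3 and 0 of 31.

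Few genes of the ligase around DDA1 were 2-fold apart. Of 28 CRL4 and DDA1 partner genes, 1 was 2-fold higher, the COP9 signalosome subunit COPS8 (1.09 ± 0.04), and 1 lower, the subunit COPS4 (-1.19 ± 0.05), with a median of -0.12. The scaffold CUL4A differed by 0.32 ± 0.03, CUL4B by -0.54 ± 0.04 and the adaptor DDB1 by -0.45 ± 0.03.

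Along the chromosomes, the size of the difference varied by region. In 292 windows of 10 Mb with at least 10 protein-coding genes tested, medians ran from -1.68 to 1.27, with quartiles of -0.35 and 0.3. The lowest was chromosome 18 from 30 to 40 Mb, where 0 of 31 genes were 2-fold higher in T98G and 22 lower. It holds DSC3, DSG2 and the chromatin gene ASXL3 (-8.25 ± 0.20). Chromosome 14 from 90 to 100 Mb followed at -1.44 over 57 genes and chromosome 9 from 60 to 70 Mb at -1.38 over 18 genes. On the high side stood chromosome 8 from 130 to 140 Mb at 1.27 over 15 genes, with CCN4 at 9.09 ± 0.11, and chromosome 5 from 140 to 150 Mb at 1.26 over 94 genes, which holds the protocadherins and the RAS pathway inhibitor SPRY4 (8.51 ± 0.10). Chromosome 18 from 60 to 70 Mb, with the SERPINB cluster, was at 1.06. The chromosome 8 window fell to 0.615 when all gene types were counted. By chromosome, X had a median of -0.62 and 14 of -0.60, and 20 had 0.71. Copy number was not measured.

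**Figure D4:**
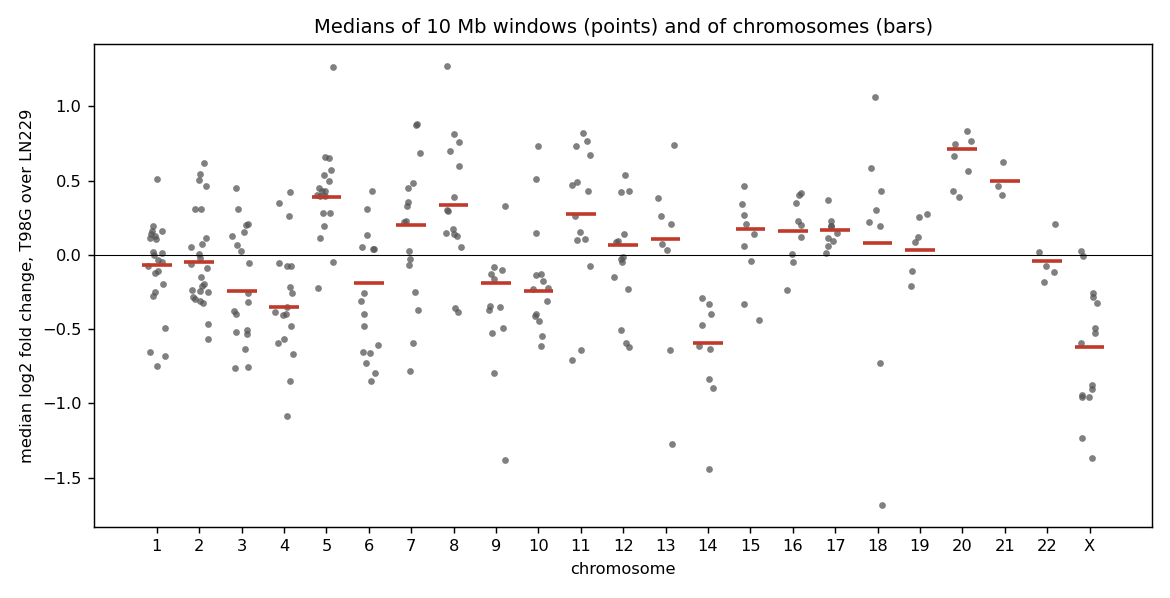
Median log2 fold change of T98G over LN229 (y) of protein-coding genes in 10 Mb windows (grey points) and over each chromosome (red bars), by chromosome (x); horizontal scatter has no meaning. Chromosome 20 lies highest at 0.71 and chromosomes X (-0.62) and 14 (-0.60) lowest, and single windows of chromosome 18 fall at both ends of the range.

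The libraries with the DDA1 guide gave a separate reading of the same lines, with 21493 genes tested, 8250 higher (38.4%) and 9017 lower (42.0%) in T98G, 80.3% in all. Of the 9494 genes 2-fold apart with the control guide, 8941 were tested there. Of those 8691 (97.2%) had the same direction, 7276 were again 2-fold apart in that direction, and 57 were 2-fold apart in the other. Genes 2-fold apart in either direction with both guides made up 77.2% of the control calls and 74.9% of the DDA1-guide calls. Across the 20330 genes in both fits, which are not independent replicates, Pearson's r of the log2 fold changes was 0.931. CDKN2A differed by -7.35 ± 0.11, DSG2 by -7.90 ± 0.07 and CD44 by 8.87 ± 0.08 with the DDA1 guide. DDA1 stood at 34.8 ± 1.5 CPM in LN229 sgDDA1 and 59 ± 2.32 CPM in T98G sgDDA1.

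The size of the line difference depended on the guide for 9044 of 23082 genes tested (39.2%) in edgeR's test of line by guide over 12 libraries, and by at least 2-fold for 2637 (11.4%). With U118-MG added, a fit of 18 libraries called 4227 of 24418 genes (17.3%). U118-MG had been kept out of the main fits because its sgCon libraries were known to stand apart within their group. Whether that lowered the count was not tested. EGFR fell to a line difference of 2.62 ± 0.04 with the DDA1 guide (line by guide -1.70 ± 0.06, adjusted p = 7.15e-21). CCL5 no longer passed the test there, at 152 ± 22.6 CPM in LN229 and 160.2 ± 13.3 CPM in T98G (0.04 ± 0.07, adjusted p = 0.616), and its line by guide change was -3.11 ± 0.10. ANKRD1, lower in T98G with the control guide, was at 3.12 ± 0.559 and 3.51 ± 0.702 CPM with the DDA1 guide. Of the 57 genes that turned 2-fold apart in the other direction 47 were protein-coding, among them WNT7B, at 0.38 against 3.52 CPM with the control guide and at 1.81 ± 0.322 against 0.634 ± 0.24 CPM with the DDA1 guide. These genes were picked after their values were seen.

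**Figure D5:**
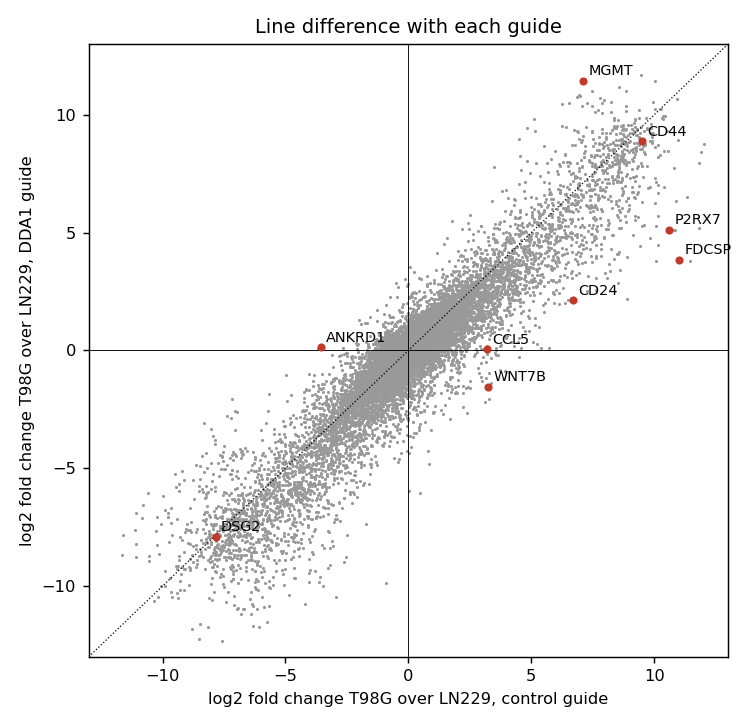
Log2 fold change of T98G over LN229 with the DDA1 guide (y) against that with the control guide (x) for the 20330 genes in both fits; the dotted line marks equality and named genes are in red. Most genes lie along the line (r = 0.931), CCL5 lies on the horizontal axis, and WNT7B at 3.22 and -1.55 has opposite signs.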

How the data were processed

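RNA sequencing counts of 6 libraries, LN229 sgCon 1 to 3 and T98G sgCon 1 to 3, were compared. The 6 libraries with the DDA1 guide served as a separate reading, and the 6 of U118-MG entered only the alternative fits of 18 libraries. The submitters' processing notes name fastp 0.19.6 (a read trimmer), STAR 2.4.0 (an aligner), HTSeq 0.12.4 (a read counter), the build GRCh38, and DESeq2 with no version. No source used here says whether libraries are stranded, so overlapping and antisense genes cannot be told apart, which includes CDKN2A and its antisense neighbours. The authors deposited raw counts per gene for 46218 gene IDs, of which 14105 have no symbol and 44443 are in GENCODE 29 (GRCh38), which gave gene type and position. The deposited FPKM values are the authors' and divide each count by 1 length per gene and by the library total.

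Own computations began from the counts, in R 4.3.3 with edgeR 4.0.16 (limma 3.58.1) and, as an alternative, DESeq2 1.42.0. The steps were filterByExpr by group, TMM scaling, quasi-likelihood tests and Benjamini-Hochberg adjustment across the tested genes at a threshold of 0.05 and, for 2-fold calls, a log2 difference of 1. The method was tested on simulated data in which 20949 of 21149 genes were unchanged. Scaling between lines that differ in most genes was therefore not tested. TMM factors were 1.059 to 1.088 for LN229 sgCon and 0.9315 to 0.933 for T98G sgCon. A floor of 3 counts per library equals 0.0301 to 0.0634 CPM after scaling. The 95% intervals and the floors hold counting error alone, as the labels name no molecular identifiers. Among counts from 1 to 19, even numbers were over-represented in all 6 libraries (57.4% to 62.0%) for an unknown reason, and halving the counts was therefore an alternative.

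Named genes are DDA1, the 12 largest differences each way at 10 CPM or more, up to 3 each way of each of 43 lists, all glioma driver and temozolomide genes, the most abundant 2-fold genes, genes on in 1 line, markers from 7 lists, and the leading genes of windows and noncoding RNAs. Other genes named were chosen after their values were seen, and a few genes picked by the rule are left out here. The members and lists were chosen with earlier results of these data known. Replicate numbers did not pair the libraries (correlations of deviations of same-numbered libraries -0.0154, -0.00731 and 0.00696). Alternatives were other size factors, no count filter, DESeq2, 12 or 18 libraries, the replicate block, thinning of LN229 sgCon 1, halved counts and leaving out each library. Promoters are from RefSeq GRCh38.p14.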

Additional observations from a re-analysis of the deposited data

Results flagged for a closer look

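For 22 named genes the T98G over LN229 difference with the DDA1 guide departed from that with the control guide by at least 8-fold, by edgeR's test of the difference itself (adjusted p under 0.05). In all, 179 of 334 named genes passed that test at some size, against 39.2% of all genes tested. Many named genes were picked for their difference with the control guide, which is part of that test, so the shares are not of like sets. In the fit of 18 libraries 115 of the 179 passed and 18 of the 22, the exceptions being MGMT, MMP3, SLA and ZNF730. That fit holds the 12 libraries by which the 179 were called, so it is no separate check. The share over all genes in it, 17.3%, is therefore no measure to set beside these counts. Values are the change of the log2 line difference, DDA1 guide minus control guide, and no explanation of them was tested.

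For most of these genes T98G was higher with the control guide and the difference was smaller with the DDA1 guide. Picking genes for a large difference with the control guide favours such a pattern. How much of it comes from the picking was not tested. FDCSP, a secreted peptide of follicular dendritic cells, moved by -7.13, from 65.6 to 1.17 ± 0.153 CPM in T98G. The matrix and membrane genes SPOCK1 (-3.66), LUM (-4.93), MMP3 (-3), ADAM12 (-3.43), AMTN (-4.32) and CD24 (-4.52) moved the same way, as did the secreted or immune genes CCL5 (-3.11), LY96 (-3.14), SLA (-3.28), VWF (-3.51) and SERPINB7 (-5.65). CD24 was at 19 ± 0.384 CPM in T98G sgDDA1 and 4.2 ± 0.945 CPM in LN229 sgDDA1.

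The LN229-labelled libraries changed between guides as well, for CD24 and CCL5 above and for other genes. P2RX7 moved by -5.43, with 0.307 ± 0.0747 CPM in LN229 sgDDA1 against 0.0067 CPM in LN229 sgCon, and NUPR1 by -3.02, with 1.67 ± 0.121 CPM in LN229 sgDDA1. WNT7B (-4.73), MEGF6 (-3.97) and GFRA1 (-3.8) changed sign between guides. CDH3 (-3.63) and FAM189A2 (-3.43) were lower in T98G with both guides, and the difference widened. ANKRD1 (3.74) moved the other way, with 3.12 ± 0.559 CPM in LN229 sgDDA1 against 63.7 CPM in LN229 sgCon. ZNF730 (-3.71) and MGMT (4.46) rest on a few counts in the LN229-labelled libraries. ZNF730 was at 0 in LN229 sgCon, and MGMT was at 0 in LN229 sgDDA1 and had 6, 4 and 0 counts in LN229 sgCon, so that the fitted size depends on the prior count.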

How the results depend on the processing

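The control comparison gave 8283 higher and 8415 lower with DESeq2, 8463 and 8674 with other size factors, 9125 and 10506 without a count filter, and 7829 and 8174 with halved counts. Leaving out 1 library gave 8493 to 8659 higher and 8419 to 8689 lower. With the replicate block the counts were 8326 and 8399, and the block changed no call of a named gene. Counts that depended on the guide fell with 18 libraries from 4217 positive and 4827 negative to 1564 and 2663. The window of chromosome 8 from 130 Mb fell from 1.27 to 0.615 with all gene types.

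Of 4668 comparisons of 334 named genes with an alternative, 4639 kept direction and call, and 320 genes did so in every one. Without a filter, CDK4 (-0.00826), TERT (-0.00288) and RGS5 (-0.00485) changed sign, none of them called. Leaving out 1 library, uncalled genes changed sign over these ranges: RGS5 -0.07 to 0.225, TERT -0.0624 to 0.133, CDH1 -0.437 to 0.18, KRT19 -0.633 to 0.0175, SLC1A2 -0.135 to 0.464 and CLDN5 -0.23 to 0.0318. With 18 libraries COL1A1 (adjusted p = 0.112), NF1, ATRX, QKI, MSH3 and ALKBH3 were no longer called. The cause was not tested. Of 700 list medians, 628 stayed within 0.25. Depth limits differences of genes near 3 counts per library, and folds of near-silent genes rest on a few counts.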
